A study of Saccharomyces cerevisiae with 16 samples.

Results

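The 10 annotated genes for the canonical histones, the H2A variant and the linker histone of budding yeast were examined for trimethylation of histone H3 at lysine 4 (H3K4me3). They were *HTA1*, *HTA2* (H2A), *HTB1*, *HTB2* (H2B), *HHT1*, *HHT2* (H3), *HHF1*, *HHF2* (H4), *HTZ1* (the variant H2A.Z) and *HHO1* (the linker histone H1). They were chosen by name from the 6002 nuclear protein-coding genes of the sacCer3 annotation, not by any measured value. Earlier results of these data were known when they were chosen. A peak was assigned to a gene if it overlapped a window from 200 bp upstream of the gene start to the gene end. The annotation gives coding spans, so "start" is the first base of the start codon.

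The mark was mapped by CUT&RUN, in which an antibody directs a nuclease to the modified nucleosomes and the released DNA fragments are sequenced. There were 8 H3K4me3 libraries from 4 strains, with 2 colonies per strain, which the study calls technical replicates in one place and biological replicates in another. All strains derived from BY4741 (his3Δ1 leu2Δ0 met15Δ0 ura3Δ0) and carried a synthetic locus from human *HPRT1*, either in its natural base order (synHPRT1) or with the order of bases reversed (synHPRT1R). The locus was held on a CEN/ARS episome with a *LEU2* marker (YAC) in cells grown in SC-Leu, or was integrated at YKL162C-A on chromosome XI in cells grown in YPD. Context and medium therefore cannot be told apart. One library, synHPRT1 YAC replicate 2, has a title and genotype of synHPRT1 and a source name of synHPRT1R. Its peak list holds the synHPRT1 contig, and it was kept in the synHPRT1 group. The 8 IgG libraries were not analysed here.

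Histones package DNA into nucleosomes, and most of their synthesis takes place during DNA replication. In budding yeast each canonical histone is encoded by 2 genes, and the genes stand in divergent pairs, H2A with H2B and H3 with H4, that share the DNA between their starts as a common promoter. *HTZ1* and *HHO1* stand outside these pairs, and H2A.Z replaces H2A in nucleosomes that flank gene starts. H3K4me3 is laid down by the Set1 complex (COMPASS) on nucleosomes near the starts of transcribed genes, so the product of *HHT1* and *HHT2* is itself the protein that carries the mark.

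The coding starts of the H3 genes are shown because they encode the modified residue. The first 45 bases follow, with the codon of lysine 4 in capitals (the count of 4 leaves out the initiator methionine).
HHT1: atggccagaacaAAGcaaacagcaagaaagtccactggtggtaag
HHT2: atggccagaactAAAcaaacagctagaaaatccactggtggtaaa
Of these 45 bases 5 differed, and the encoded proteins were identical along their 136 residues. *HHT1* and *HHT2* shared 93.2% of 411 coding bases, with a longest identical run of 74 bp. *HHF1* and *HHF2* shared 97.4% of 312 bases with identical proteins and a longest run of 80 bp. *HTA1* and *HTA2* shared 93.7% of 399 bases, with 2 differing residues and a longest run of 65 bp, and *HTB1* and *HTB2* shared 87.9% of 396 bases, with 4 differing residues and a longest run of 35 bp. A read that falls wholly within such a run cannot be assigned to one copy. Whether a run is long enough to hold a read depends on the read length, for which the sources used here give 2 values, and how the aligned reads were filtered for this is not given in them.

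The DNA between the starts of the 4 pairs is shown next, because at each pair at least 1 of the peaks described further on had its summit there. Each stretch is the plus strand of sacCer3 and reaches from 15 bases before to 15 bases after the summits and motif matches it holds: chrIV:914993-915166 for *HTA1*-*HTB1*, chrII:236070-236199 for *HTA2*-*HTB2*, chrII:255929-256055 for *HHT1*-*HHF1* and chrXIV:576180-576375 for *HHT2*-*HHF2*. Capitals mark matches, on either strand, to TTCCNNNNNNTTCNC, the pattern of the upstream activating sequence bound by the histone gene activator Spt10.
HTA1-HTB1: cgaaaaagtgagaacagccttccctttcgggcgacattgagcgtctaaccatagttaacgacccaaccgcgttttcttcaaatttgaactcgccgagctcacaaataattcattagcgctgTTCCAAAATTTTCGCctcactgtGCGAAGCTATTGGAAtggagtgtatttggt
HTA2-HTB2: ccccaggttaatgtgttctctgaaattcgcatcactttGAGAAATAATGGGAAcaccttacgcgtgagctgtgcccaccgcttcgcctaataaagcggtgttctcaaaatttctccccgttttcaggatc
HHT1-HHF1: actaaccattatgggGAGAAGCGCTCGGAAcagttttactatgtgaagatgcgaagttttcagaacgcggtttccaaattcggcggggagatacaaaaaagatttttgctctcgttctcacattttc
HHT2-HHF2: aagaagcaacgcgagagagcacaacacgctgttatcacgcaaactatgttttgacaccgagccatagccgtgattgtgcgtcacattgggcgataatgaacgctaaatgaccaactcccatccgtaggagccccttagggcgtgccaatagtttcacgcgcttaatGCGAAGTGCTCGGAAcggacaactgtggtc
*HTA1*-*HTB1* held 2 matches and each of the other pairs held 1. The intervals of *HTZ1* and *HHO1* with their divergent neighbours held 0. In the central 600 bp of the 653 divergent intervals that are at least that long, 5.21% (34 intervals, the 4 histone pairs among them) held a match. The hexamer TATAAA was found in the central 600 bp of 3 of the 4 histone pairs, against 61.4% of the 653 intervals. The cell-cycle box ACGCGT was found in 1 of the 4 pairs (7.04% of intervals) and CGCGAAA in 2 (7.66%). Both strands were searched, and no match to one of these patterns overlapped a match to another. A match is a description of letters and not evidence of binding. The Spt10 pattern was chosen for its tie to histone genes, so its presence at the 4 pairs is not a result of these data. Distances from summits to matches are given below for the histone pairs and were not computed for other intervals.

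Each list held between 3463 and 4049 peaks. The files give no read totals. For each peak the number of fragments over the summit and the background of the caller were recovered from its fold enrichment and p-value, and the genome-wide background lay between 76.2 and 98.9 fragments. A level is given below as fragments at the summit divided by that background. The median level over the 4038 genes with a level in all 8 libraries ranged from 2.15 in synHPRT1R YAC replicate 1 to 3.10 in synHPRT1 integrated replicate 1. The former library had the fewest peaks and the highest background. Among peaks at the genome-wide background the lowest fold enrichment was between 1.25 and 1.33 per list, so a gene without a peak may still have carried signal under that size.

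Only *HHT2*, *HTZ1* and *HHO1* had a peak in all 8 libraries, 3 of the 10 genes, whereas 67.3% of the 6002 genes did. Of the 8 genes in divergent pairs 1 had a peak in all libraries. The longest of these 8 is 411 bp, and among the 651 genes no longer than that the share was 47.9%. A peak was found over *HTB1* in 7 libraries, *HTA1* in 6, *HTA2* and *HHF2* in 4 each, *HTB2* in 2, and *HHT1* and *HHF1* in 1 each. Genes with a peak in at most 1 library made up 15.9% of all genes and 32.1% of the short ones, and 2 of the 10 histone genes were among them. The H3 copies therefore differed, with *HHT2* marked in 8 libraries and *HHT1* in 1. Of the 12 non-histone genes that flank the 10, 9 had a peak in all 8 libraries, where 67.3% of all genes did. The other 3, named after their values were seen, were *CRF1* with no peak in any library, *FLR1* with one in 5 and *ECM15* with one in 7.

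**Figure D1:**
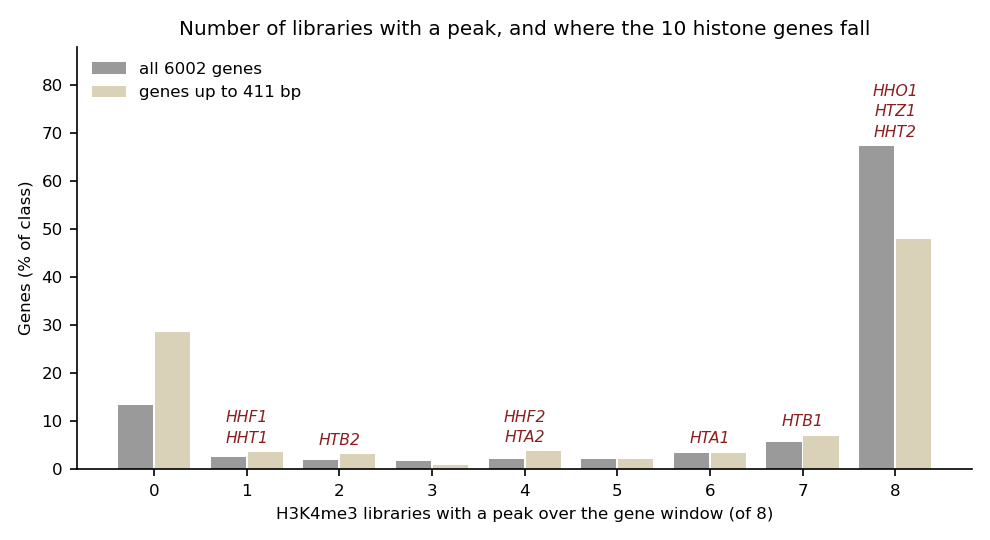
Bars give the percentage of all 6002 genes (grey) and of the 651 genes up to 411 bp (light) by the number of H3K4me3 libraries with a peak over the gene window. The names stand at the number for each histone gene: 3 lie at 8 libraries and 2 at 1 library.

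*HHT2* (YNL031C, chrXIV:575640-576050, minus strand) carried a peak over most of its window in every library. Its level was 2.67 and 2.70 in synHPRT1 YAC, 2.08 and 3.16 in synHPRT1R YAC, 3.08 and 2.76 in synHPRT1 integrated, and 2.70 and 3.17 in synHPRT1R integrated (replicates 1 and 2). The contexts overlapped, with synHPRT1R YAC replicate 1 the lowest library. The peaks were 784 to 884 bp wide, at the 41.2 percentile of width among 4038 genes, and reached −log10 q values of 19.0 to 49.6. They covered 85.4% to 92.8% of the window, and bases 575729 to 576250 were under a peak in all 8. The mean level stood at the 57.3 percentile of the 4038 genes with a level in every library.

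The summit lay upstream of *HHT2* in all 8 libraries, 145 to 307 bp from its start and between the starts of *HHT2* and *HHF2*. Over the 4038 genes the median summit lay 35 bp inside the gene, and 20.1% had the summit upstream in every library. The 8 summits lay at positions 576195 to 576357 (median 576316), a median of 30.5 bp and at most 151 bp from the Spt10 match shown above at 576346 to 576360.

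The partner *HHF2* (YNL030W, chrXIV:576727-577038, plus strand) had little of this peak. The shared peak ended short of its start in all 8 libraries and covered a median of 68.8% of the 676 bp between the starts. It reached into the upstream part of the *HHF2* window in 3 libraries, where it covered 6.64% (synHPRT1 YAC replicate 1), 8.01% (synHPRT1 integrated replicate 2) and 4.88% (synHPRT1R YAC replicate 1) of that window. Separate peaks within *HHF2* were found in 2 YAC libraries and were weak. They brought the share of the window under peaks to 40.4% in synHPRT1 YAC replicate 1 and 42.6% in synHPRT1R YAC replicate 2, and the other 4 libraries had 0%. In synHPRT1 YAC replicate 1 this peak was 173 bp wide with its summit 144 bp into the gene and a level of 1.61, and in synHPRT1R YAC replicate 2 it was 218 bp wide with its summit at 169 bp and a level of 1.54. In every library the window of *HHT2* was covered to a greater extent than that of *HHF2*, whose highest value of 42.6% was below the lowest of 85.4% for *HHT2*.

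*HHT1* (YBR010W, chrII:256331-256741, plus strand) and *HHF1* (YBR009C, chrII:255373-255684, minus strand) were the least marked pair. Both had a peak in synHPRT1R integrated replicate 2 only. One, 176 bp wide with a −log10 q of 2.81 and a level of 1.51, had its summit between the starts, 291 bp upstream of *HHT1*, and touched 3.93% of the *HHT1* window. The other, 195 bp wide with a −log10 q of 3.52 and a level of 1.54, had its summit 130 bp into *HHF1*. The summit between the starts lay 82 bp from the Spt10 match shown above. Neither peak passed a −log10 q of 10. The 646 bp between the starts were free of peaks in the other 7 libraries.

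*HTB1* (YDR224C, chrIV:914317-914712, minus strand) had its level at 1.79 in synHPRT1 YAC replicate 2, 1.52 and 1.93 in synHPRT1R YAC, 2.05 and 2.35 in synHPRT1 integrated, and 1.83 and 1.96 in synHPRT1R integrated. There was no peak in synHPRT1 YAC replicate 1. Every value was below the median level of its own library over the 4038 genes with a level in all 8 libraries. *HTB1* itself is not among those genes. The peaks, 451 to 635 bp wide, covered the 5′ part of the gene and the adjoining side of the interval. In 4 libraries the summit was at the same base, position 915008, which lies 296 bp upstream of *HTB1* and 522 bp upstream of *HTA1*. In the other 3 it lay 74 to 106 bp inside *HTB1*. Positions that serve as summit in 4 or more libraries were uncommon (154 of 27067 positions in the nuclear genome, with 2.43% of all summits). The shared position is 106 bp from the nearest of the Spt10 matches shown above.

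*HTA1* (YDR225W, chrIV:915530-915928, plus strand) had peaks of 2 kinds. Narrow peaks of 278 to 366 bp with a summit 117 to 330 bp into the gene were found in 4 libraries, at levels of 1.44 and 1.51 in synHPRT1 YAC and 2.04 and 1.72 in synHPRT1R integrated. In synHPRT1 integrated a peak of 2486 bp (replicate 1) or 2457 bp (replicate 2) ran from *HTA1* through the next gene *ADK1*, which encodes adenylate kinase, and had its summit inside *ADK1*, 1495 and 1487 bp from the start of *HTA1*. The levels of 2.93 and 2.97 in these libraries belong to that distant summit. No peak overlapped *HTA1* in either synHPRT1R YAC library, although *ADK1* had a peak in all 8. Peaks on the side of *HTB1* and on the side of *HTA1* were separate in each library that had both, and no peak over *HTA1* reached into the interval. The 51.3% of the 817 bp between the starts that was covered at the median all adjoined *HTB1*.

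**Figure D2:**
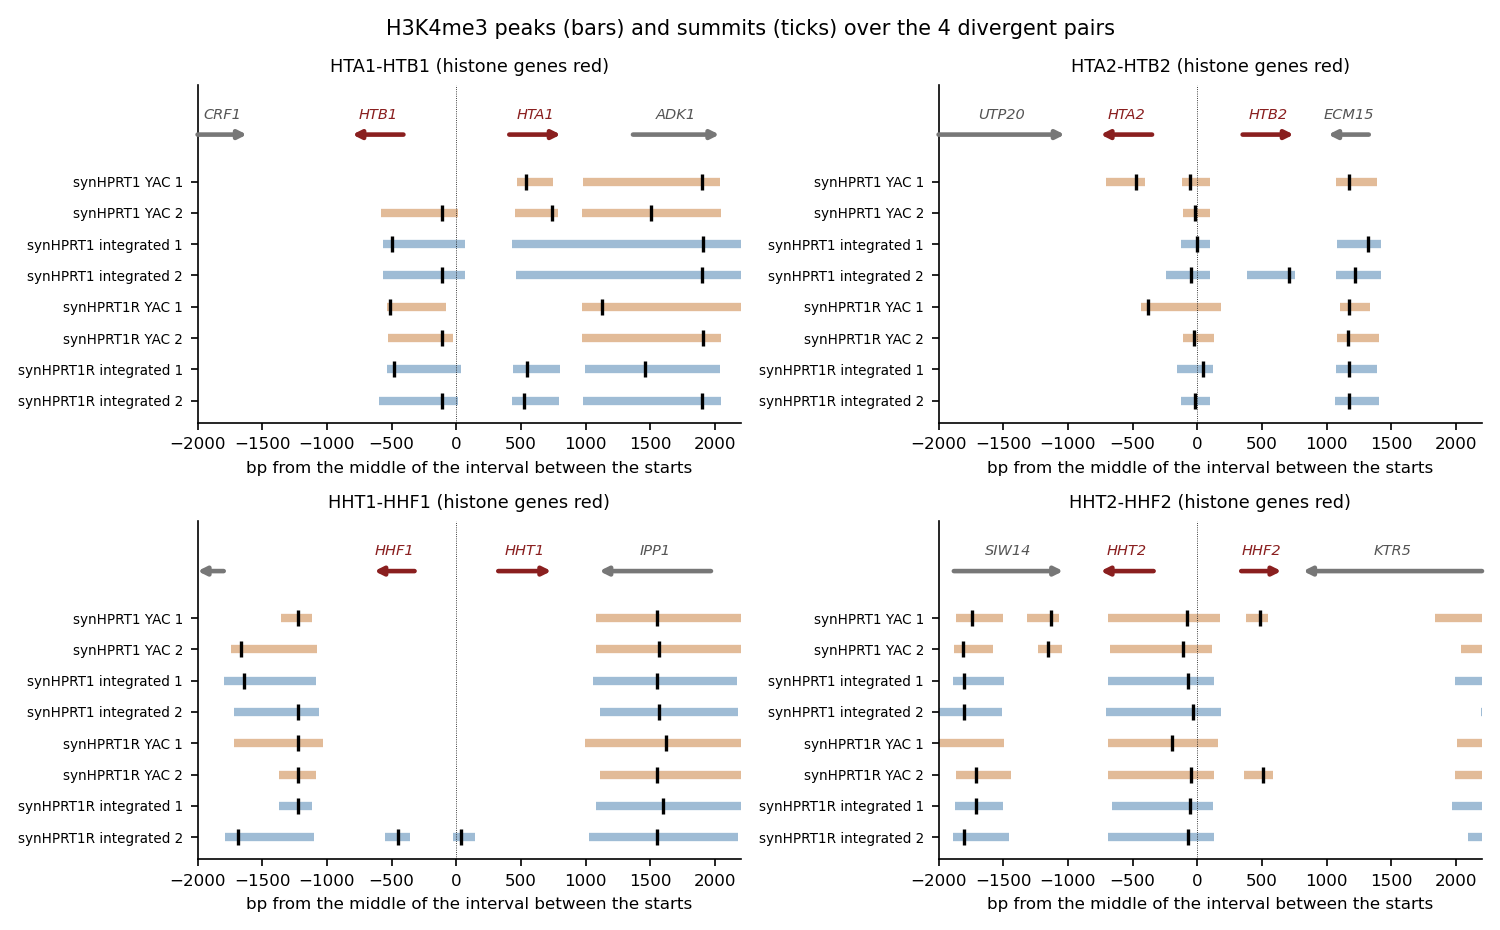
Peaks (bars, orange for YAC and blue for integrated) and their summits (black ticks) in each library over the 4 divergent pairs. The x axis is distance in bp from the middle of the interval between the starts, with histone genes as red arrows and other genes as grey arrows. The *HHT2*-*HHF2* peak reaches over *HHT2* and stops before *HHF2* in all 8 libraries, and the *HTA2*-*HTB2* summit lies between the genes in 7. Peaks over *HHT1*, *HHF1* or the DNA between their starts are found in 1 library, and the other peaks of that panel lie outside them.

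At *HTA2* (YBL003C, chrII:235394-235792, minus strand) and *HTB2* (YBL002W, chrII:236492-236887, plus strand) the mark lay between the genes. A peak touched the 699 bp between the starts in all 8 libraries, and 7 had their summit there, at positions 236085 to 236184. These 7 peaks were 204 to 342 bp wide (median 223 bp) with levels of 1.73 to 2.15 (median 2.06). Their summits lay at most 62 bp, and at the median 18 bp, from the Spt10 match at 236108 to 236122. In synHPRT1R YAC replicate 1 the peak was 617 bp wide, weaker at a level of 1.49, and had its summit 31 bp into *HTA2*.

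Most of these peaks ended outside both gene windows, which is why *HTA2* was counted in 4 libraries and *HTB2* in 2. The window of *HTA2* was covered to 50.6% in synHPRT1 YAC replicate 1, by a weak peak within the gene at a level of 1.44. It was covered to 47.4% in synHPRT1R YAC replicate 1, 15.4% in synHPRT1 integrated replicate 2 and 1.00% in synHPRT1R integrated replicate 1. *HTB2* had a peak of its own in synHPRT1 integrated replicate 2 only, with the summit 359 bp into the gene near its end and a level of 1.52. The other library counted for *HTB2*, synHPRT1R YAC replicate 1, had 5.70% of the window under the edge of the wide peak over *HTA2*.

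Over the 4 pairs, a summit between the starts was found in 8 libraries at *HHT2*-*HHF2*, 7 at *HTA2*-*HTB2*, 4 at *HTA1*-*HTB1* and 1 at *HHT1*-*HHF1*. Of the 212 divergent pairs in the genome with 646 to 817 bp between the starts, 16% had such a summit in all 8 libraries and 27.8% in none. The share of the interval under peaks had a median of 63.5% over these 212 pairs (quartiles 27.3% and 100%). At the histone pairs it was 68.8%, 33.3%, 51.3% and 0% in the order above. The level of one gene of a pair against that of its partner could not be tested for any of the 4, since none had a summit nearer to each start than to the other in all 8 libraries. Of the 58 divergent pairs in the genome that met this condition, 44 (75.9%) differed between the partners (limma, adjusted p under 0.05).

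*HTZ1* (YOL012C, chrXV:303579-303983, minus strand) was marked in every library at levels of 2.71 and 2.82 in synHPRT1 YAC, 2.00 and 2.72 in synHPRT1R YAC, 3.005 and 2.97 in synHPRT1 integrated and 2.88 and 3.16 in synHPRT1R integrated. On this scale the YAC libraries were below the integrated ones without overlap. The medians over the 4038 genes with a level in every library did the same (2.15 to 2.67 in YAC, 2.69 to 3.10 in integrated). The comparison relative to those genes follows below. The peak was wide, 1667 to 3140 bp with a median of 2292 bp, at the 94.8 percentile of width (median 941 bp over the same genes). It ran across the 1365 bp to the divergent neighbour *PLB3*, a phospholipase B gene, and covered at least 88.9% of that interval in each library. In 6 libraries the summit lay 117 to 149 bp inside *HTZ1*. In synHPRT1R YAC replicate 1 and synHPRT1R integrated replicate 1 it lay in the interval, 768 and 756 bp upstream. In synHPRT1 integrated replicate 1, synHPRT1R YAC replicate 1 and synHPRT1R integrated replicate 2 the same peak also ran past the end of *HTZ1* into the next gene, with widths of 2997, 2456 and 3140 bp.

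*HHO1* (YPL127C, chrXVI:308828-309604, minus strand) had the highest mean level of the 3 genes with a peak in every library, at the 76.9 percentile of the 4038 genes. It was 3.02 and 2.97 in synHPRT1 YAC, 2.44 and 3.07 in synHPRT1R YAC, 4.37 and 3.76 in synHPRT1 integrated and 3.04 and 3.45 in synHPRT1R integrated. The contexts overlapped by a small margin, and the 2 highest libraries were both synHPRT1 integrated. The peak was 1701 to 2017 bp wide, at the 90.1 percentile, and covered all of the 605 bp to the divergent neighbour *NAN1*, which encodes a factor of ribosomal RNA synthesis. The summit lay 123 and 136 bp inside *HHO1* in 2 libraries. In the other 6 it lay 578 to 656 bp upstream, between 28 bp before and 50 bp past the start of *NAN1*. These levels are therefore shared with that gene. None of *HHT2*, *HTZ1* and *HHO1* had its summit inside its own window in all 8 libraries, whereas 31.4% of the 6002 genes did.

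**Figure D3:**
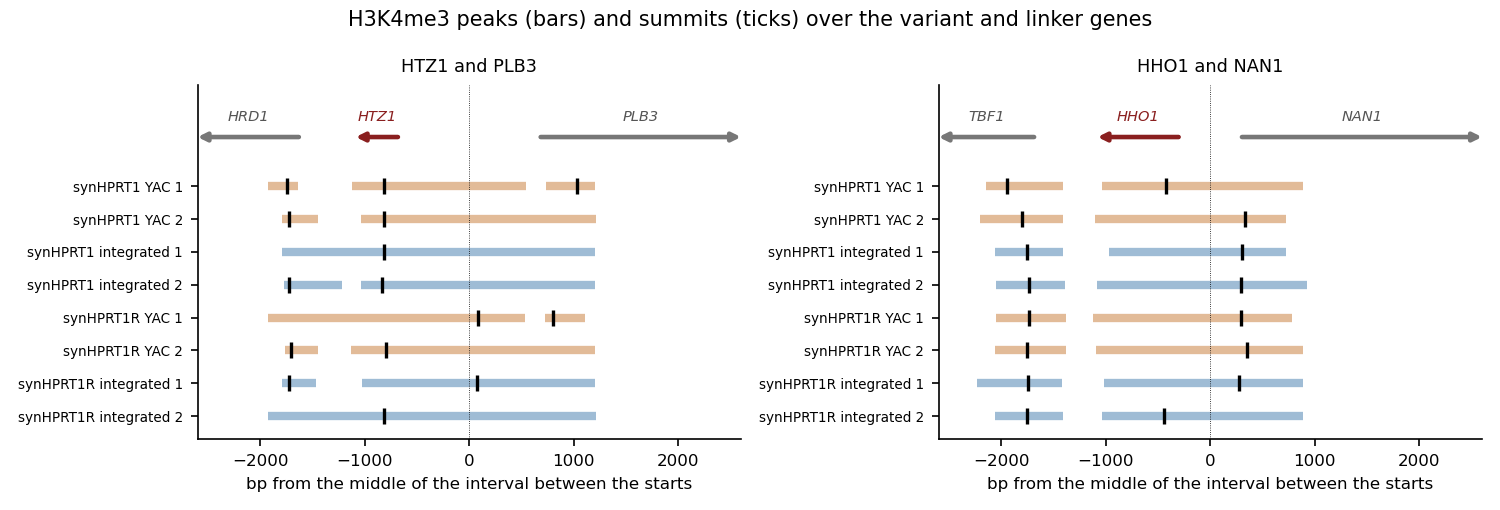
Peaks (bars, orange for YAC and blue for integrated) and summits (black ticks) over *HTZ1* with *PLB3* and over *HHO1* with *NAN1*, against distance in bp from the middle of the interval between the starts. Each peak covers at least 88.9% of the interval. The summit is inside *HTZ1* in 6 libraries and inside *HHO1* in 2.

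**Figure D4:**
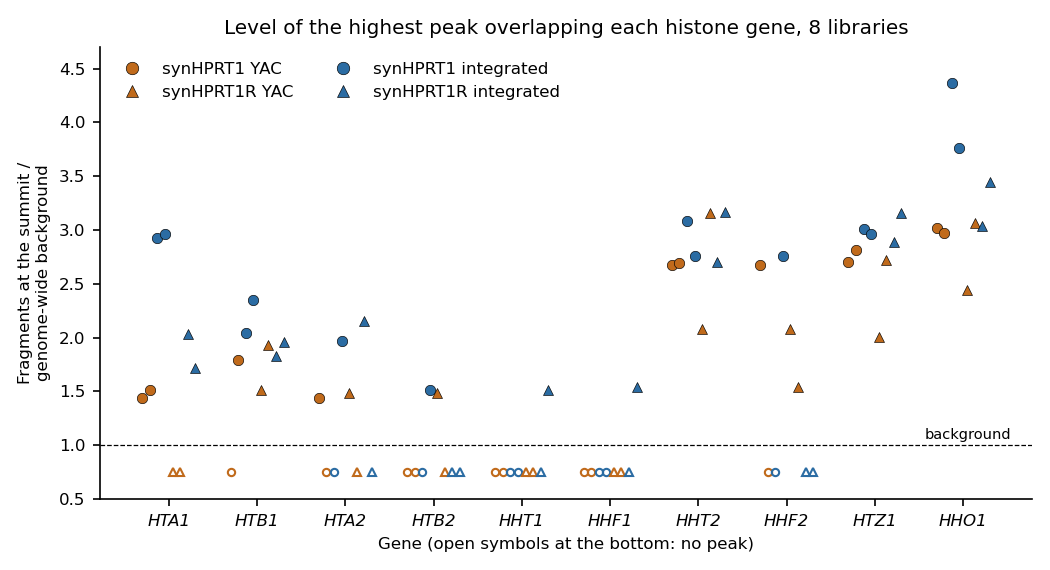
Level of the highest peak overlapping each gene window, as fragments at the summit over the genome-wide background (dashed line), with 1 symbol per library. Open symbols at the bottom mark libraries without a peak. *HHT2*, *HTZ1* and *HHO1* lie between 2.00 and 4.37 in all 8 libraries, and the summit of the plotted peak lay outside the gene in 8 libraries at *HHT2*, 6 at *HHO1*, 4 at *HTB1*, 3 at *HHF2*, 2 each at *HTA1*, *HTA2* and *HTZ1*, and 1 each at *HTB2* and *HHT1*.

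It was also asked here whether the level at native genes differed between strains with the episome and strains with the integrated locus, which differed in medium too. Levels were centred on the median gene of each library. This takes out a shift shared by the genes of a library, be it depth, enrichment or a real change of the mark. Which of these made up the shift was not tested. The centred levels were compared with limma over the 4038 genes with a level in all 8 libraries. On this scale 0 genes (0%) differed between YAC and integrated at an adjusted p of 0.05, and 447 (11.1%) had an unadjusted p under 0.05. *HHT2* was higher in YAC by 0.10 ± 0.08 (log2, SE, n = 4 and 4, limma adjusted p = 0.686), *HTZ1* by 0.01 ± 0.08 (adjusted p = 0.974), and the difference for *HHO1* was −0.09 ± 0.07 (adjusted p = 0.683). The differences of *HHT2* and *HHO1* slightly exceeded their standard errors, and that of *HTZ1* was well below its own.

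Without centring, as levels over the genome-wide background, the difference of the median gene was −0.25 (log2, YAC minus integrated) and 28.8% of genes were called lower. *HHO1* was then called (−0.34 ± 0.13, limma adjusted p = 0.0463), while *HHT2* (−0.16, adjusted p = 0.269) and *HTZ1* (−0.24, adjusted p = 0.100) turned to lower values and were not. Relative to the shift of the median gene none of the 3 was called.

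The base order of the synthetic locus was compared in the same fit. Between synHPRT1R and synHPRT1, 0 of 4038 genes (0%) were called and 119 (2.95%) had an unadjusted p under 0.05. The differences were −0.15 ± 0.07 for *HHO1*, 0.05 ± 0.08 for *HHT2* and −0.03 ± 0.08 for *HTZ1* (limma adjusted p = 1.00 for each). That of *HHO1* exceeded its standard error (limma unadjusted p = 0.0545), and those of *HHT2* and *HTZ1* were below theirs. The difference between contexts did not differ by locus for any of the 3 at an adjusted p of 0.05. The lowest unadjusted p was that of *HTZ1* (interaction −0.18 ± 0.07, limma unadjusted p = 0.0208, adjusted p = 0.454). Of the 4038 genes 13 were called, and 424 had an unadjusted p under 0.05. The interaction value is the departure of the context difference in synHPRT1R from its mean over both loci. That in synHPRT1 departs equally the other way. The 0.01 given above for *HTZ1* is that mean, of a positive difference in synHPRT1 and a negative one in synHPRT1R.

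**Figure D5:**
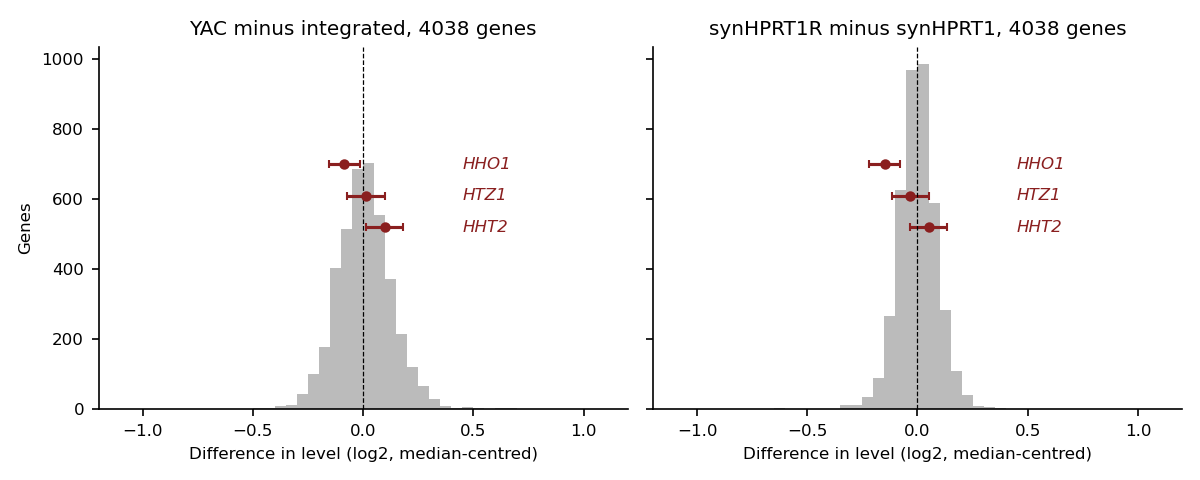
Grey bars give the number of genes by their difference in median-centred log2 level, for YAC minus integrated (left) and synHPRT1R minus synHPRT1 (right). Red points with bars are *HHT2*, *HTZ1* and *HHO1* with their standard errors. None of the 3 was called in either panel.

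The 7 genes without a peak in some library could not enter that fit. When genes with a peak in at least 6 libraries were fitted with missing values left out, *HTA1* and *HTB1* entered as well. *HTA1* had the largest differences of the 5 histone genes then fitted, −0.71 ± 0.13 for YAC minus integrated (log2, SE, n = 2 and 4, limma unadjusted p = 0.000196, adjusted p = 0.0881) and −0.54 ± 0.13 for synHPRT1R minus synHPRT1 (n = 2 and 4, limma unadjusted p = 0.00167, adjusted p = 0.763). Neither was called, and of the 4582 genes 0 (0%) and 1 (0.0218%) were. Both of its YAC values came from synHPRT1, and its values in synHPRT1 integrated are those of the distant summit in *ADK1*. *HTB1* differed by 0.02 ± 0.09 (limma adjusted p = 0.957) and −0.07 ± 0.09 (adjusted p = 1.00).

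No histone gene was marked in every library of one context while lacking a peak throughout the second, a pattern shown by 0.4% of genes. *HTA1* came nearest, with a peak in 4 of 4 integrated and 2 of 4 YAC libraries. The share of its window under peaks was 46.4% and 55.8% in synHPRT1 YAC, 0% in both synHPRT1R YAC libraries, and 62.8%, 57.6%, 60.9% and 61.1% in the integrated libraries, so the contexts did not overlap. The difference of −35.1 ± 11.0 percentage points was not called over 5196 genes (limma, unadjusted p = 0.0193, adjusted p = 0.409), where 0.751% of genes were. *HTB1* differed by −17.6 ± 14.0 points (adjusted p = 0.769), *HHF2* by 20.0 ± 11.6 points (adjusted p = 0.681) and *HTA2* by 20.4 ± 14.7 points (adjusted p = 0.744), each with overlap. This measure was added after the data had been seen.

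Genes that act on histones and on the mark were taken from 2 lists. Of 23 regulators of histone genes and histone chaperones, 16 (69.6%) had a peak in all 8 libraries, against 67.3% of all genes, and 3 had one in at most 1 library, against 15.9% of all genes. Their median difference was −0.03 for YAC minus integrated, against 0.00 over all genes tested. The differences ranged from −0.22 for *CAC2*, a subunit of the chromatin assembly factor CAF-1, to 0.22 for *SPT6*, a chaperone of transcribed chromatin. Of 12 genes for H3K4 methylation and its removal, 11 (91.7%) had a peak in all 8 libraries, against the same 67.3%, and 1 had one in at most 1 library. The median difference was −0.01, from −0.26 for *SPP1* to 0.18 for *SHG1*, both subunits of the Set1 complex. In both lists 0 genes rose and 0 fell (limma, adjusted p under 0.05), and 2 of the 16 and 2 of the 11 genes tested had an unadjusted p under 0.05, against 11.1% of all genes tested. Between synHPRT1R and synHPRT1 0 of either list were called, with differences from −0.10 (*NAP1*) to 0.11 (*SWR1*) in the first and from −0.11 (*SWD3*) to 0.14 (*SWD1*) in the second. *CSE4*, the H3 variant of the centromere, had a peak in all 8 libraries and a difference of 0.24 ± 0.11 between YAC and integrated that was not called (limma adjusted p = 0.442).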

How the data were processed

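H3K4me3 peak lists of 8 libraries were analysed. Per the labels and the study's methods, the authors trimmed read pairs (their length differs between the methods and the list of libraries) with Trimmomatic, aligned them with Bowtie2 (2.2.9) to sacCer3 with the synthetic locus added, and called peaks in each library on its own with MACS2 (2.1.0), with paired fragments, duplicates kept and no control library. Each deposited list gives a fold enrichment (a ratio to the local background) and a p-value and q-value as −log10, all made by the authors' peak caller. Without a control library, regions rich in fragments for any reason can be called, and kept duplicates remain in the scores.

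Fragments at each summit and the caller's background were computed from the deposited fold, taken as (fragments + 1) / (background + 1), and the Poisson p-value. The −log10 p recomputed from them differed from the authors' value by a median of at most 0.000116 per library, and 1 peak that differed by over 0.02 was dropped. The background value shared by 51.4% to 66.7% of nuclear peaks was taken as the genome-wide background. Genes, coordinates and sequences came from the RefSeq annotation and genome of the same build, in which no peak lay past a chromosome end. log2 fragments at the highest overlapping peak, centred on the median gene, were fitted with limma 3.58.1 (R 4.3.3, eBayes with trend) with terms for context and base order, and p-values were adjusted by Benjamini-Hochberg over all genes tested with a threshold of 0.05. The p-values rest on the spread between colonies of 1 strain per group, without the counting error of each peak. As the main fit has no interaction term, a context difference that varies with base order also enters that spread. The fit and the overlap counts were tested on simulated data. Alternatives covered the peak threshold, the window, the summit position, scaling, the replicate block, the number of libraries required and leaving out each library. The study does not state that equal replicate numbers share a batch, and the main fit did not pair them. Correlations of deviations between groups ran from −0.21 to 0.10, which cannot exclude a weak pairing.

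The 10 genes, the lists of regulators and of H3K4 methylation genes, the motifs and the tests were chosen with earlier results of these data known. All 10 genes were named. Of a list, genes past the threshold were to be named, and otherwise the lowest and highest member, and neighbours were named where a peak over a histone gene had its summit there. The 8 IgG libraries were not analysed here.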

Additional observations from a re-analysis of the deposited data

Results flagged for a closer look

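Within the 4 libraries of each context, 26 groups of values (the percentage of a gene window under peaks and, where all 4 libraries had a peak, the level) were searched for a single library far from the other 3, and 11 were found. Chance flags about 1 in 20 groups of measured values. A window that is covered in only 1 library, or fully covered in all but 1, stands out whatever its value, and 7 of the 11 are of these kinds.

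Covered in 1 of 4 libraries were *HTB2* in synHPRT1R YAC replicate 1 (5.70%) and in synHPRT1 integrated replicate 2 (60.6%), *HHT1* (3.93%) and *HHF1* (38.1%) in synHPRT1R integrated replicate 2, and *HHF2* in synHPRT1 integrated replicate 2 (8.01%). Covered below the 100% of the other YAC libraries were *HTZ1* in synHPRT1 YAC replicate 2 (91.4%) and *HHO1* in synHPRT1 YAC replicate 1 (95.8%).

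The window of *HTB1* was at 0% in synHPRT1 YAC replicate 1 against 53.9% to 62.2% in the other YAC libraries. That of *HTA2* was at 15.4% in synHPRT1 integrated replicate 2 against 0% to 1.00%. The level of *HTZ1* was 2.00 in synHPRT1R YAC replicate 1 against 2.71 to 2.82, and that of *HHO1* was 2.44 in the same library against 2.97 to 3.07. This library also had the lowest median level over the 4038 genes with a level in all 8 libraries (2.15), the fewest peaks (3463) and the highest background (98.9 fragments). The part of these in the levels of *HTZ1* and *HHO1* was not tested.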

How the results depend on the processing

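Of 84 alternative values for the differences of *HHT2*, *HTZ1* and *HHO1*, 72 kept their direction and stayed uncalled, 11 changed sign and 1 became called (*HHO1* over the genome-wide background, −0.34). The sign changes were of uncalled values. Over the genome-wide background, *HHT2* (−0.16) and *HTZ1* (−0.24) were lower in YAC and *HHT2* (−0.030) was lower in synHPRT1R. With genes in at least 6 libraries *HTZ1* was at −0.0049. The other 7 came from leaving out 1 library. The ranges were −0.035 to 0.072 for *HTZ1* and 0.06 to 0.17 for *HHT2* between contexts, and −0.083 to 0.026 for *HTZ1* and −0.0017 to 0.12 for *HHT2* between base orders. *HHO1* kept its sign (−0.12 to −0.05 and −0.17 to −0.11).

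Of the 10 genes, 3 had a peak in all libraries under each alternative, except that 0 did when the summit had to lie in the window, and 4 did (adding *HTB1*) without synHPRT1 YAC replicate 1 (leave-one-out range 3 to 4). For YAC minus integrated, limma called 0 genes, 8 with −log10 q at or above 10, 1 without the upstream 200 bp, 1 with the summit in the window, 1166 (4 higher, 1162 lower) over the genome-wide background, 1 with the deposited fold, 39 for the window share and 0 to 14 when 1 library was left out (14 without synHPRT1R YAC replicate 1, 9 without synHPRT1R YAC replicate 2, 9 without synHPRT1R integrated replicate 1 and 1 without synHPRT1 YAC replicate 2). For synHPRT1R minus synHPRT1 it called 0, 2 over the genome-wide background, 1 with genes in at least 6 libraries and 0 to 2 when 1 library was left out (2 without synHPRT1 YAC replicate 1 and 1 without synHPRT1 integrated replicate 2). With a replicate block 0 genes were called in either comparison, with 409 and 106 at an unadjusted p under 0.05, and 44 of 58 divergent pairs were called, as without it. Among divergent pairs 12 of 17 were called at that threshold of −log10 q, and 42 to 60 when 1 library was left out. Leaving out a library leaves 1 in its group, which is assumed to vary like the others. The exact sign-flip test of the histone pairs was not run, because none had summits on both sides in all 8 libraries.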
